A study of Mus musculus with 4 samples.

Results

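Cadherins and non-clustered protocadherins were followed in hippocampi of mice that had undergone global cerebral ischemia (GCI), in which the brain's blood supply is interrupted for a time. The set holds every gene of the count tables whose symbol is Cdh or Pcdh followed by a number, or by a number and x. It came to 36 of 22609 genes, 24 cadherins and 12 protocadherins, with reads in some library for 35 and with 31 that passed the filter on low counts. The rule takes more than classical cadherins: Cdh13, Cdh16, Cdh17, Cdh23, Cdh26 and Cdh29 are of other types. The clustered protocadherins (Pcdha, Pcdhb and Pcdhg) are not members. Cdh29 is an older name of Cdhr4 in the RefSeq table of mouse genes, but the files list both symbols with different counts, so its reads may belong to part of 1 locus and are uncertain.

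PELP1 FBKO mice lack PELP1, a co-regulator of estrogen receptors, in the forebrain, and were compared with FLOXED mice. Each genotype had 2 libraries from hippocampus, and both were C57BL/6. All animals were ovariectomized, carried estradiol (E2) mini pumps, underwent GCI and were killed at 24 h of reperfusion. No group was free of ischemia, ovariectomy or estradiol, so a difference that was present before any of them cannot be told apart. The labels do not state the driver of the Cre recombinase, the ages and any pooling of animals. The series text speaks of duplicate runs and combined reads, and no label ties the 2 libraries of a genotype to different animals. The p-values therefore rest on a spread between libraries that may be technical.

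Cadherins are calcium-dependent adhesion proteins of the cell surface. Classical cadherins bind the same or a related cadherin on the neighbouring cell, and their cytoplasmic tails hold catenins, which link them to actin. Type I and type II cadherins differ in the adhesive outermost domain. Non-clustered protocadherins, most of them of the delta-1 and delta-2 groups, adhere more weakly, bind no beta-catenin and signal through other partners. In the hippocampus, N-cadherin (Cdh2) and several type II cadherins sit at synapses, and particular combinations mark particular layers and connections.

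Between 17524594 and 22447658 reads were assigned to genes per library. The members took 0.147% and 0.135% of them in PELP1 FBKO libraries, against 0.116% and 0.135% in FLOXED libraries. Pelp1 itself, the targeted gene, had 17.9 and 17.3 CPM (the read count scaled to library size, with TMM factors) in PELP1 FBKO, against 26.7 and 26.2 CPM in FLOXED, a log2 fold change of -0.59 (SE 0.149, edgeR quasi-likelihood, adjusted p = 0.130). The groups did not overlap, but Pelp1 did not pass the threshold of 0.05 over all genes. FLOXED 1 stood apart by transcript length. In the class of the longest transcripts (6371 nt and over) the median gene was lower in FLOXED 1 than in FLOXED 2 by a log2 difference of -0.29, and in the class of the shortest (up to 1603 nt) it was higher by 0.32. The cadherin and protocadherin transcripts are long, with a median of 4945 nt for the 31 tested members, against 3422 nt for all tested genes.

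Levels per length (CPM per kb of the longest transcript) spanned from undetected to 30.6. Of the 36 members, 10 averaged at least 10 CPM per kb over the 4 libraries, 13 lay between 1 and 10, and 13 under 1. The most abundant was Pcdh20, a protocadherin of less well known function, with 35.8 and 30.2 CPM per kb in PELP1 FBKO and 28.4 and 27.9 CPM per kb in FLOXED. Next came Pcdh8, Pcdh1 and Pcdh9, each with a mean of 19.3 CPM per kb, and Cdh2 with 18.1. Their ranges over the libraries overlapped, so these 4 cannot be put in order. Cdh11 (15.0), Pcdh10 (14.7), Cdh8 (13.4), Pcdh19 (10.2) and Cdh10 (10.1) completed the members above 10 CPM per kb. The median tested member, at 4.64 CPM per kb, was below the median tested gene, at 7.59 CPM per kb. Pcdh20 lay at the 83.6th percentile of tested genes by level per length, and Cdh23, the lowest tested member, at the 0.385th.

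**Figure D1:**
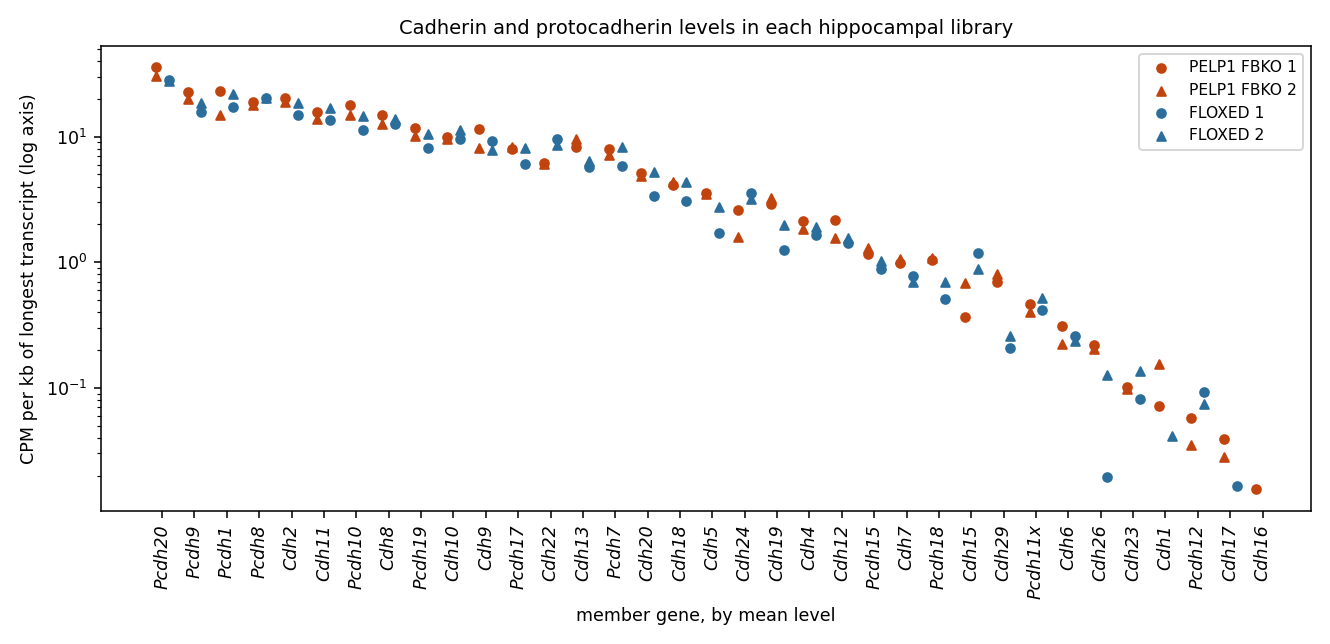
Level of each member with a read, in CPM per kb of the longest transcript on a log axis, in the 4 libraries (circles, library 1; triangles, library 2). Members are ordered by mean level, Pcdh20 the highest at 30.6 CPM per kb, and 5 values of 0 are not drawn.

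No cadherin or protocadherin passed the threshold between PELP1 FBKO and FLOXED. By edgeR's quasi-likelihood test 0 of 31 tested members had an adjusted p under 0.05, as did 0.00% of the 14978 tested genes, and the smallest adjusted p of a member was 0.111. At an unadjusted p under 0.05 there were 5 members on the higher side (Cdh29, Cdh19, Cdh13, Pcdh18 and Cdh5), against 10.1% of tested genes, and 3 on the lower side (Cdh22, Cdh24 and Cdh15), against 5.55%. DESeq2 called 0 members, where it called 2.20% of its tested genes higher and 0.895% lower. The libraries of the genotypes did not overlap in 12 tested members on the higher side, against 25.4% of tested genes, and in 4 on the lower side, against 23.0%. The log2 fold change was positive in 22 and negative in 9 of the tested members, where all tested genes split 50.0% each way, with a median of 0.20 for the members and of 0.0002 for all tested genes.

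That median moved with single libraries of both genotypes. It was 0.09 without PELP1 FBKO 1, 0.28 without PELP1 FBKO 2, 0.07 without FLOXED 1 and 0.38 without FLOXED 2. It was 0.14 when each library's trend with transcript length was taken out, where 19 members were positive and 12 negative. FLOXED 1 held the lowest of the 4 values in 19 of the 31 tested members, against 33.4% of all tested genes. FLOXED 1 lay below FLOXED 2 in 23 members, with a median log2 difference of -0.24, and PELP1 FBKO 1 lay below PELP1 FBKO 2 in 9. In the class of the longest transcripts, which held 10 members, the median log2 fold change of all tested genes was 0.10, and in the class of the shortest, which held 0 members, it was -0.16. The part of transcript length in the genotype difference of single members was not tested beyond these values.

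**Figure D2:**
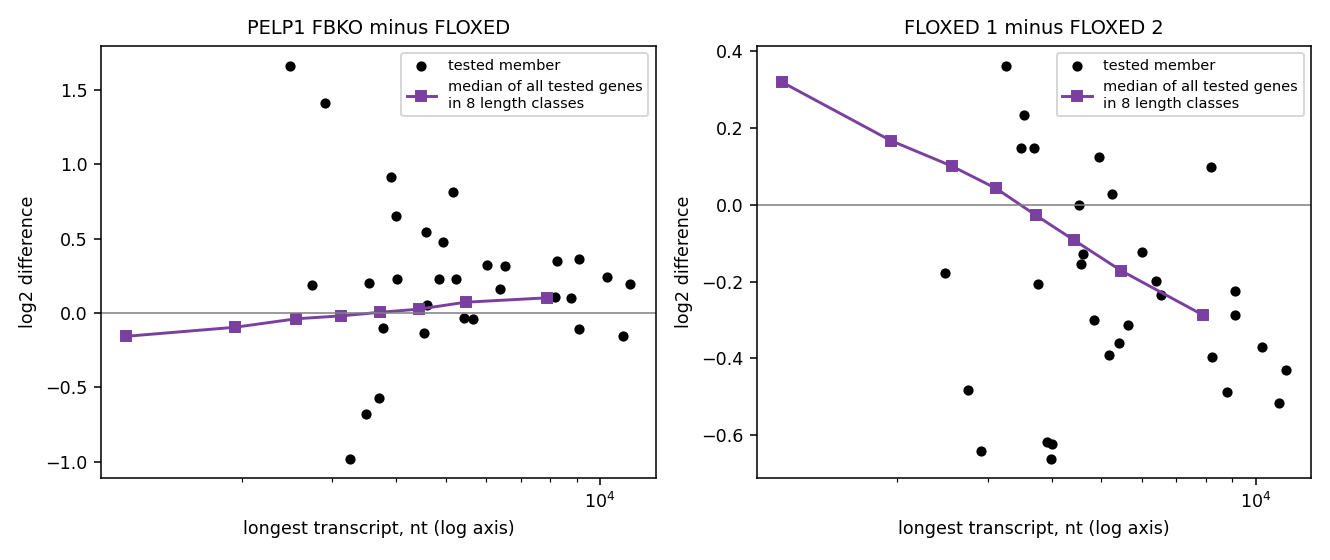
Log2 difference against the length of the longest transcript (log axis) for the tested members (black points) and the median of all tested genes in 8 length classes (squares), for PELP1 FBKO minus FLOXED and for FLOXED 1 minus FLOXED 2. The medians run from -0.16 to 0.10 between the genotypes and from 0.32 to -0.29 between the FLOXED libraries, short to long transcripts.

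**Figure D3:**
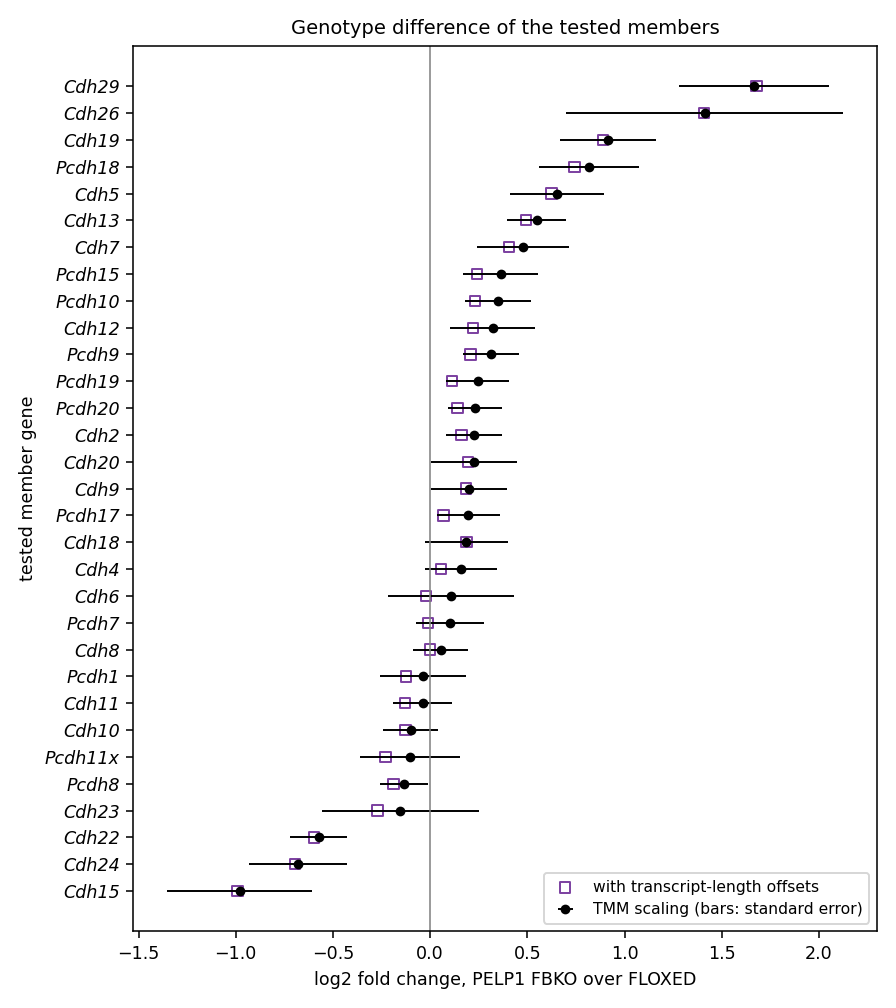
Log2 fold change of PELP1 FBKO over FLOXED for the 31 tested members, with standard errors (black), and with transcript-length offsets (open squares). Values run from 1.66 for Cdh29 to -0.98 for Cdh15, and 22 of 31 black points lie to the right of 0.

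Type I cadherins are the family of E-cadherin and N-cadherin. Cdh2, N-cadherin of neural and synaptic junctions, had 98.2 and 90.9 CPM in PELP1 FBKO, against 72.3 and 89.2 CPM in FLOXED. All but FLOXED 1 lay near each other, and the log2 fold change was 0.23 (SE 0.145, edgeR adjusted p = 0.494), with 0.08 without FLOXED 1 and 0.38 without FLOXED 2. Cdh4, or R-cadherin, had 13.6 and 11.8 CPM in PELP1 FBKO and 10.6 and 12.2 CPM in FLOXED, groups that overlapped, with a log2 fold change of 0.16 (SE 0.184, edgeR adjusted p = 0.724) that ran from 0.05 to 0.26 with 1 library left out. Cdh15, or M-cadherin, known from skeletal muscle and cerebellum, had 26 and 45 reads in PELP1 FBKO, against 67 and 62 reads in FLOXED. In CPM these were 1.18 and 2.20, against 3.82 and 2.86, so the groups did not overlap, and the log2 fold change was -0.98 (SE 0.372, edgeR adjusted p = 0.263). Cdh15 passed only when PELP1 FBKO 2 was left out, at a log2 fold change of -1.49 (edgeR adjusted p = 0.0353), and stood at -0.60 when PELP1 FBKO 1 was.

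Cdh1 and Cdh3, also of type I, were at or near the floor of detection. Cdh1, E-cadherin of epithelia, had 7 and 14 reads in PELP1 FBKO and 0 and 4 reads in FLOXED, and was not tested. Its 0 reads in FLOXED 1 allow a level of up to 0.171 CPM, a limit for counting error only. Cdh3, P-cadherin, had 0 reads in all 4 libraries, a limit of 0.171 CPM in FLOXED 1, the shallowest.

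Type II cadherins, the largest group with 13 members, were all tested, and 9 had a positive and 4 a negative log2 fold change. Cdh22, also called PB-cadherin and found in brain, had 23.0 and 22.3 CPM in PELP1 FBKO, against 35.5 and 32.0 CPM in FLOXED. The 4 libraries fell into 2 tight pairs, 22.7 ± 0.461 CPM in PELP1 FBKO and 33.7 ± 2.48 CPM in FLOXED (SD, n = 2 each). The log2 fold change was -0.57 (SE 0.146, edgeR adjusted p = 0.133), between -0.66 and -0.50 over 12 alternative settings, and it stayed on the same side without each library in turn. The adjusted p ranged from 0.0596, with transcript-length offsets, to 0.353.

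Cdh24, which binds catenins like other type II cadherins, had 9.02 and 5.53 CPM in PELP1 FBKO, against 12.3 and 11.1 CPM in FLOXED. The PELP1 FBKO libraries differed from each other more than PELP1 FBKO 1 did from FLOXED, and the log2 fold change was -0.68 (SE 0.253, edgeR adjusted p = 0.255). Without PELP1 FBKO 1 it was -1.09 (edgeR adjusted p = 0.0341), and without PELP1 FBKO 2 it was -0.37.

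The sequences upstream of Cdh22, Cdh24 and Pcdh18 are shown, Cdh22 and Cdh24 on the lower side and Pcdh18, of the delta-2 group, on the higher side. Of the 8 members with an unadjusted p under 0.05, Cdh5, Cdh13, Cdh19 and Cdh29 were not matched to a window, and in that of Cdh15 too short a stretch lay before the first annotated exon. The windows are from RefSeq, build GRCm38.p6, on the minus strand of chr2:165234854-165234987, chr14:54641365-54641514 and chr3:49757326-49757475, and end before the first annotated exon. They are not the build of the deposited counts, mm9. Capitals mark the GC box, GGGCGG on either strand, a motif of Sp family factors. Within the windows drawn, Cdh22 has 1, Cdh24 has 2 and Pcdh18 has 0.
Cdh22: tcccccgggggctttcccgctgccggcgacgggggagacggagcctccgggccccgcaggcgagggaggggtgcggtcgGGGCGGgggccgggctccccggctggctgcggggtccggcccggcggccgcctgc
Cdh24: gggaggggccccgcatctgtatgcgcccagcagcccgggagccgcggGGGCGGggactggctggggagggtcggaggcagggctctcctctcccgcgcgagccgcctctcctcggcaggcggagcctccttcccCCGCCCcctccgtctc
Pcdh18: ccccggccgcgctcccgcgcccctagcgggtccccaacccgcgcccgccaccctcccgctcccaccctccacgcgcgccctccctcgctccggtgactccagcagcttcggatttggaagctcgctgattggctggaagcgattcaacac

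In the 250 bases before the RefSeq start, 9 of the 22 members with such a window held a GC box (Cdh6, Cdh8, Cdh15, Cdh22, Cdh24, Pcdh10, Pcdh17, Pcdh18 and Pcdh19), against 32.7% of 32851 mouse windows. The estrogen response element, GGTCA and TGACC with NNN between them, was in 0 of the 22 and in 0.0639% of all windows. Its half-site AGGTCA, which can overlap the full element, was in 1, Cdh18, and in 14.02% of all windows. The cAMP response element TGACGTCA was in 0 of the 22 and in 1.55% of all windows. Both strands were searched. A member counted if any of its windows matched, whereas the percentages are shares of single windows, so the counts and percentages differ in unit. These matches describe letters in the windows and no binding.

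Cdh19, a type II cadherin described in Schwann cell precursors and glia, had 11.5 and 12.6 CPM in PELP1 FBKO, against 4.91 and 7.80 CPM in FLOXED. Both PELP1 FBKO libraries lay above both FLOXED libraries, and the log2 fold change was 0.92 (SE 0.247, edgeR adjusted p = 0.145), with 0.63 without FLOXED 1 and 1.29 without FLOXED 2. Oligodendrocyte markers moved with it: all 8 of 8 had a positive log2 fold change, and their summed level was 5801 and 6222 CPM in PELP1 FBKO, against 2904 and 3702 CPM in FLOXED. The part of these cells in the Cdh19 value was not tested. In whole hippocampus, more cells of a type and more RNA per cell cannot be told apart. Cdh20, also known in glia and neural progenitors, had 20.7 and 19.5 CPM in PELP1 FBKO and 13.4 and 20.9 CPM in FLOXED, and the groups overlapped.

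Cdh5, VE-cadherin of endothelial junctions, had 14.2 and 13.96 CPM in PELP1 FBKO, against 6.79 and 11.0 CPM in FLOXED. The PELP1 FBKO libraries were nearly equal while the FLOXED libraries lay apart, and the log2 fold change was 0.65 (SE 0.242, edgeR adjusted p = 0.252). It was 0.35 without FLOXED 1 and 1.04 without FLOXED 2. Of 8 endothelial markers 7 were positive, and their summed levels were 216 and 205 CPM in PELP1 FBKO, against 124 and 175 CPM in FLOXED, and the part of endothelial cells in the Cdh5 value was not tested. Pcdh12, or VE-cadherin-2, the other endothelial member, had 7 and 4 reads in PELP1 FBKO and 9 and 9 reads in FLOXED. It was too low to be tested, and the RefSeq table places it on a stretch shared with Rnf14, so its reads are uncertain. Pcdh7, Pcdh10, Pcdh17, Cdh12 and Cdh23 also overlap another listed gene there.

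**Figure D4:**
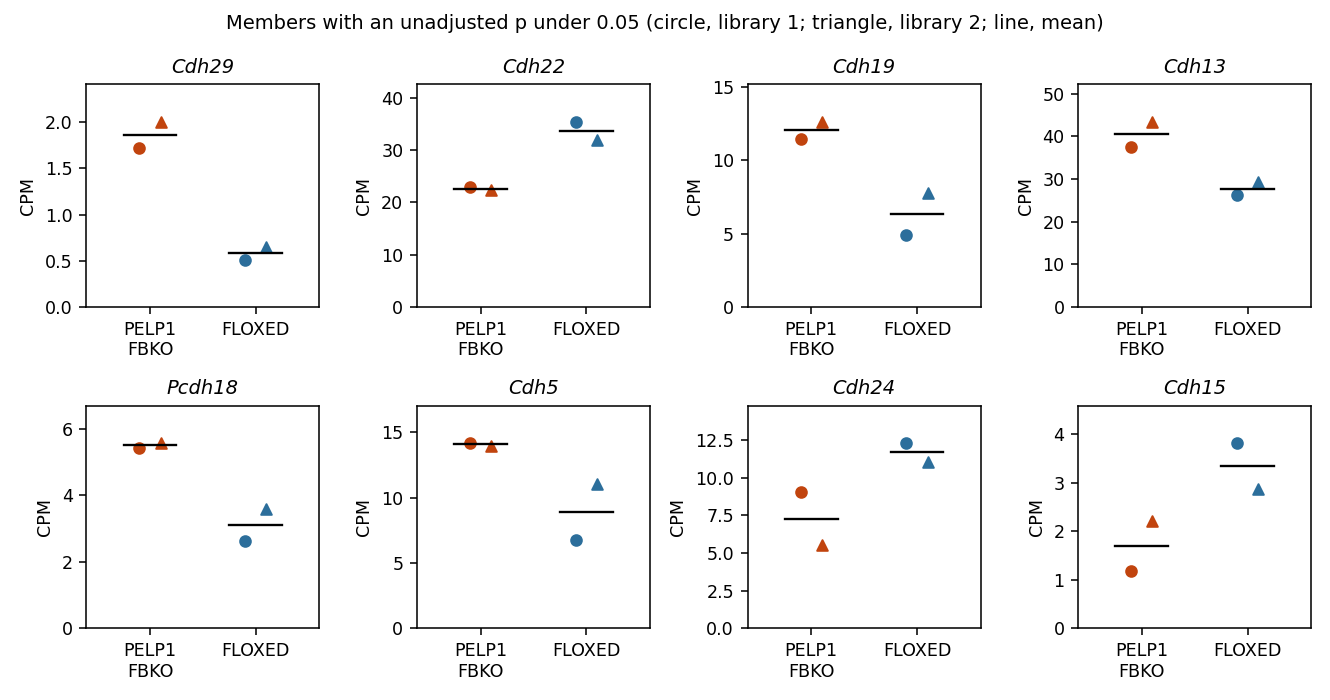
CPM (TMM-scaled) in each library for the 8 members with an unadjusted p under 0.05, PELP1 FBKO left of FLOXED, each y axis from 0, with a line at the mean of the 2 libraries. The genotypes do not overlap in any of the 8, but the 8 were chosen by p on these same libraries. Their lack of overlap is therefore no separate result. Among all tested genes, 25.4% had both PELP1 FBKO libraries above both FLOXED libraries, and 23.0% had both below. None of the 8 passed the threshold over all genes.

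Cdh7, a type II cadherin known from the chick neural crest, had 4.85 and 5.29 CPM in PELP1 FBKO, against 3.82 and 3.46 CPM in FLOXED. The groups did not overlap, and the log2 fold change was 0.48 (SE 0.237, edgeR adjusted p = 0.382). Cdh11, OB-cadherin of mesenchyme and neurons, was the most abundant type II member, with 88.8 and 78.5 CPM in PELP1 FBKO and 76.5 and 95.2 CPM in FLOXED. The groups overlapped, and the log2 fold change was -0.04 (SE 0.151, edgeR adjusted p = 0.932). Cdh8, Cdh9 and Cdh10, type II cadherins of hippocampal synapses, overlapped between genotypes as well. Cdh9, which takes part in mossy fibre synapses, had 41.0 and 28.8 CPM in PELP1 FBKO and 32.9 and 27.9 CPM in FLOXED. The spread within PELP1 FBKO exceeded the difference of the means. The log2 fold change of Cdh8 was 0.05 (SE 0.141) and that of Cdh10 was -0.10 (SE 0.143). Cdh6, Cdh12 and Cdh18 overlapped too, with log2 fold changes between 0.11 and 0.32. That of Cdh12 was 0.05 without PELP1 FBKO 1 and 0.55 without PELP1 FBKO 2. For Cdh6, Cdh8, Cdh9, Cdh11, Cdh18 and Cdh20 the sign turned when 1 library was left out.

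Members of other cadherin types lack the classical tail or have extra domains. Cdh13, or T-cadherin, is held in the membrane by a lipid anchor and binds adiponectin. It had 37.5 and 43.5 CPM in PELP1 FBKO, against 26.2 and 29.2 CPM in FLOXED. Both PELP1 FBKO libraries lay above both FLOXED libraries, with 40.5 ± 4.24 and 27.7 ± 2.14 CPM (SD, n = 2 each) and a log2 fold change of 0.55 (SE 0.151, edgeR adjusted p = 0.149). It lay between 0.44 and 0.64 over 12 alternative settings, with adjusted p from 0.0933 to 0.526.

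Cdh29 had the smallest p of the members on a low count. It had 38 and 41 reads in PELP1 FBKO, against 9 and 14 reads in FLOXED, or 1.72 and 2.01 CPM against 0.513 and 0.646 CPM. The groups did not overlap, and the log2 fold change was 1.66 (SE 0.387, edgeR adjusted p = 0.111). Cdhr4, the gene of which Cdh29 is an older name, had 2.45 and 3.48 CPM in PELP1 FBKO, against 0.570 and 1.34 CPM in FLOXED. Cdh26, a cadherin of epithelial cells, had 14 and 12 reads in PELP1 FBKO and 1 and 8 reads in FLOXED. The difference rested on FLOXED 1, as its log2 fold change was 1.41 (SE 0.712, edgeR adjusted p = 0.388), but 0.72 without FLOXED 1 and 3.28 without FLOXED 2. Cdh23, which with Pcdh15 forms the tip links of hair cells, overlapped between genotypes at 1.13 and 1.08 CPM in PELP1 FBKO and 0.912 and 1.52 CPM in FLOXED, and the sign of its difference turned without FLOXED 2. Cdh16 (kidney) had 1 read in all, in PELP1 FBKO 1, and Cdh17 (liver and intestine) had 3 and 2 reads in PELP1 FBKO and 1 and 0 reads in FLOXED.

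The delta-1 protocadherins have a longer outer part than the delta-2 group and a motif for protein phosphatase 1. Pcdh9 had 148 and 130 CPM in PELP1 FBKO, against 103 and 121 CPM in FLOXED. The groups did not overlap, PELP1 FBKO 2 and FLOXED 2 lay close together, and the log2 fold change was 0.31 (SE 0.144, edgeR adjusted p = 0.344). It was 0.21 without PELP1 FBKO 1, 0.41 without PELP1 FBKO 2, 0.20 without FLOXED 1 and 0.43 without FLOXED 2. Pcdh1 had 126 and 80.3 CPM in PELP1 FBKO and 92.7 and 119 CPM in FLOXED. It was highest and lowest in the PELP1 FBKO pair, with a log2 fold change of -0.04 (SE 0.222, edgeR adjusted p = 0.957), and its sign turned without PELP1 FBKO 2 and without FLOXED 2. Pcdh7 and Pcdh11x overlapped between genotypes, at log2 fold changes of 0.10 (SE 0.176) and -0.11 (SE 0.257), and the sign of each turned with 1 library left out.

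The delta-2 protocadherins include genes that govern synapse number. Pcdh18 had 5.44 and 5.58 CPM in PELP1 FBKO, against 2.62 and 3.60 CPM in FLOXED. Both PELP1 FBKO libraries lay above both FLOXED libraries, and the log2 fold change was 0.82 (SE 0.259, edgeR adjusted p = 0.194). It was 0.61 without FLOXED 1 and 1.06 without FLOXED 2. Pcdh8, or arcadlin, which neuronal activity induces and which draws N-cadherin into the cell, had 86.0 and 80.9 CPM in PELP1 FBKO, against 91.6 and 91.6 CPM in FLOXED. Its groups did not overlap, but the difference was small, a log2 fold change of -0.13 (SE 0.123, edgeR adjusted p = 0.637). Pcdh8 and Cdh2 stood on opposite sides of 0, neither of them past the threshold. These are RNA levels, and a relation between the genes was not tested.

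Pcdh10, which takes part in the removal of synapses downstream of MEF2, had 148 and 123 CPM in PELP1 FBKO, against 92.0 and 121 CPM in FLOXED. The second libraries of the genotypes differed little, and the log2 fold change of 0.35 (SE 0.170, edgeR adjusted p = 0.379) was 0.20 without PELP1 FBKO 1, 0.16 without FLOXED 1 and 0.55 without FLOXED 2. Pcdh19, the X-linked gene of an epilepsy of girls, had 121 and 105 CPM in PELP1 FBKO and 83.5 and 108 CPM in FLOXED. Pcdh17, a synaptic protocadherin first described in the basal ganglia, had 91.8 and 94.7 CPM in PELP1 FBKO and 69.2 and 93.4 CPM in FLOXED. In both genes FLOXED 1 alone was low and the groups overlapped, and without it the log2 fold changes were 0.07 for Pcdh19 and -0.0025 for Pcdh17. Without FLOXED 2 they were 0.43 for Pcdh19 and 0.42 for Pcdh17, and without PELP1 FBKO 1 that of Pcdh19 was 0.13.

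Of the other protocadherins, Pcdh20 had 188 and 158 CPM in PELP1 FBKO, against 149 and 146 CPM in FLOXED. FLOXED 1 did not stand apart here, and the groups did not overlap, at a log2 fold change of 0.23 (SE 0.139, edgeR adjusted p = 0.466). It was 0.09 without PELP1 FBKO 1 and 0.35 without PELP1 FBKO 2. Pcdh15, the partner of Cdh23 in hair cells and a gene of oligodendrocyte precursors in brain, had 10.6 and 11.8 CPM in PELP1 FBKO, against 7.98 and 9.41 CPM in FLOXED. The groups did not overlap, with a log2 fold change of 0.36 (SE 0.192, edgeR adjusted p = 0.408). All 6 precursor markers were on the same side, with summed levels of 371 and 369 CPM in PELP1 FBKO, against 275 and 310 CPM in FLOXED. Sox10, Gpr17 and Olig1 did not overlap between genotypes, against 25.4% of all tested genes on the higher side. Pdgfra (log2 fold change 0.27), Cspg4 (0.22) and Olig2 (0.05) overlapped. The part of precursor cells in the Pcdh15 value was not tested.

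The difference of the genotype means exceeded both within-genotype differences, on a log2 scale, in 9 tested members on the higher side, against 19.0% of tested genes, and in 4 on the lower side, against 14.7%. The 9 were Cdh5, Cdh7, Cdh13, Cdh19, Cdh26, Cdh29, Pcdh9, Pcdh15 and Pcdh18, and the 4 were Cdh15, Cdh22, Cdh24 and Pcdh8. Between the FLOXED libraries the median tested member differed by 0.288 on the log2 scale, against 0.212 for all tested genes. The PELP1 FBKO libraries differed by 0.174, against 0.152.

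Of 29 tested catenins and other intracellular partners, 0 passed by edgeR or DESeq2. At an unadjusted p under 0.05, 4 were on the higher and 2 on the lower side, against 10.1% and 5.55% of all tested genes, with a median log2 fold change of 0.05. Beta-catenin (Ctnnb1), the link between classical cadherins and alpha-catenin, had 700 and 736 CPM in PELP1 FBKO and 711 and 737 CPM in FLOXED, a log2 fold change of -0.01 (SE 0.146). The partner with the smallest p was Ctnna3, alpha-T-catenin, on a low count of 23 and 32 reads in PELP1 FBKO, against 6 and 9 reads in FLOXED. In CPM these were 1.04 and 1.57, against 0.342 and 0.415, with a log2 fold change of 1.75 (SE 0.469, edgeR adjusted p = 0.143). Ptpn1, a phosphatase that acts on the cadherin-catenin complex, had 66.3 and 74.4 CPM in PELP1 FBKO, against 98.0 and 92.6 CPM in FLOXED, and Ctnnal1, alpha-catulin, stood at a log2 fold change of 0.51 (SE 0.167, edgeR adjusted p = 0.208).

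More distant cadherin superfamily genes lay mostly on the higher side in PELP1 FBKO. Of 19 tested, 16 had a positive log2 fold change, against 50.0% of all tested genes, and the median was 0.38. As among the members, FLOXED 1 held the lowest value in most of them, against 33.4% of all tested genes. The exceptions were Cdhr1, Cdhr3, Ret, Dsc1 and Celsr3. The part of FLOXED 1 in these signs and in the median was not tested. At an unadjusted p under 0.05, 7 were on the higher and 0 on the lower side, against 10.1% and 5.55%, and 0 passed by edgeR. The 7 include Cdhr4, of which Cdh29, already counted among the members, is an older name. Celsr1, a planar polarity cadherin, had 14.8 and 11.7 CPM in PELP1 FBKO, against 4.73 and 7.33 CPM in FLOXED, with a log2 fold change of 1.13 (SE 0.253, edgeR adjusted p = 0.104). Cdhr3, a gene of ciliated epithelium, had 3.04 and 5.19 CPM in PELP1 FBKO, against 1.48 and 1.15 CPM in FLOXED, and a log2 fold change of 1.64 (SE 0.365, edgeR adjusted p = 0.101). DESeq2 called both, at adjusted p of 0.0163 for Celsr1 and 0.0474 for Cdhr3, where it called 2.20% of its tested genes higher. The giant cadherin Fat1 had a log2 fold change of 0.67 (SE 0.175, edgeR adjusted p = 0.138). With transcript-length offsets Celsr1 passed (edgeR adjusted p = 0.0481), where 260 of all 14978 tested genes did. Cdhr3 (edgeR adjusted p = 0.0651) and Fat1 (edgeR adjusted p = 0.0704) did not pass with these offsets.

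Of 55 tested clustered protocadherins, 0 passed by edgeR or DESeq2. At an unadjusted p under 0.05, 3 were on the higher and 3 on the lower side, against 10.1% and 5.55% of all tested genes, with a median log2 fold change of 0.10. Pcdha genes and Pcdhg genes share constant exons within their cluster, which Pcdhb genes do not. Clustered protocadherins are also similar in sequence, so their counts are uncertain. Among them were Pcdhb6 at -0.97 (SE 0.264), Pcdhb9 at 0.51 (SE 0.154) and Pcdhgc3 at 0.45 (SE 0.155). Of 17 proteases and secretase subunits that cut cadherins, 1 was on the higher side (Mmp14, 0.51, SE 0.213) and 1 on the lower side (Klk8, -0.77, SE 0.191) at an unadjusted p under 0.05, against the same 10.1% and 5.55%. Klk8, neuropsin, was called by DESeq2 (adjusted p = 0.0440) and not by edgeR (adjusted p = 0.125). The gamma-secretase subunit Aph1a had a log2 fold change of 0.37.

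Cell type markers were read beside the members, and their part in the members' values was not tested. By edgeR 0 markers passed in any list. DESeq2 called 8 oligodendrocyte, 3 astrocyte, 3 interneuron, 2 microglial, 2 meningeal, 2 dentate granule and 1 endothelial markers higher, against 2.20% of its tested genes, and 5 CA1 pyramidal markers lower, against 0.895%. It called 0 in the precursor, mural, choroid plexus, CA3 and CA2, and thalamus and cortex lists. The log2 fold change was positive in 50.0% of all tested genes, against which the signs below stand. Besides the oligodendrocyte, precursor and endothelial lists above, astrocyte markers (8 of 8 positive, 7510 and 9433 CPM in PELP1 FBKO, against 5888 and 6706 CPM in FLOXED) and mural markers (5 of 5 positive, 84.4 and 86.9 CPM, against 48.5 and 70.1 CPM) had positive signs throughout. Of the astrocyte markers 5 did not overlap between genotypes, against 25.4% of all tested genes on the higher side, whereas Gfap, Aqp4 and Aldh1l1 did. Gfap had 1500 and 3882 CPM in PELP1 FBKO and 2382 and 2258 CPM in FLOXED. Microglial markers were positive in 7 of 7, meningeal fibroblast markers in 7 of 8, interneuron markers in 7 of 8, dentate granule markers in 5 of 6, markers of thalamus and cortex in 6 of 6 and CA3 and CA2 markers in 5 of 7. CA1 pyramidal markers were negative in 7 of 7, with summed levels of 573 and 483 CPM in PELP1 FBKO, against 733 and 871 CPM in FLOXED. Choroid plexus markers were positive in 2 of 5 tested, with summed levels of 51.3 and 61.0 CPM in PELP1 FBKO, against 352 and 97.6 CPM in FLOXED. Most of the FLOXED 1 sum was Ttr, at 21.4 and 33.9 CPM in PELP1 FBKO, against 324 and 67.5 CPM in FLOXED. Kcne2, too low to be tested, was also highest in FLOXED 1. It had 2 and 7 reads in PELP1 FBKO, against 30 and 5 reads in FLOXED. Clic6 and Folr1 were highest in PELP1 FBKO 2, and Aqp1 and Kl in FLOXED 2. No marker of these lists was at 0 in all libraries.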

How the data were processed

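The authors deposited raw read counts per gene symbol, whole numbers with no normalization, as the values show. Per the submitters' processing notes, CASAVA 1.8.2, TopHat2 2.0.8b and HTSeq were used with the mm9 build. A human build stands in the series text, but the gene symbols are those of mouse. Strand and overlap settings and the annotation are not given in the sources used here, so reads of a gene and of an overlapping antisense gene cannot be told apart. Libraries were single reads of 50 bases. HTSeq's summary rows stayed out of totals and tests. Reads in no gene were 14.7% to 15.7% of uniquely aligned reads. Alignments that were not unique made up 38.5% to 47.7% of all counts, HTSeq's summary rows included, FLOXED 1 the highest.

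edgeR 4.0.16 in R 4.3.3 was run on all genes with TMM scaling, filterByExpr and quasi-likelihood F tests between genotypes (log2 fold changes are PELP1 FBKO over FLOXED), with Benjamini-Hochberg adjustment over 14978 tested genes and a threshold of 0.05. Alternatives used DESeq2 1.42.0, limma-voom (limma 3.58.1), other scalings and filters, the replicate number, single libraries left out, and transcript-length offsets, the last added after seeing the data. The chi-square per degree of freedom within pairs, 17.4 in PELP1 FBKO and 23.3 in FLOXED, was far above sampling noise, so each library counted as 1 sample. Lengths are of the longest GENCODE vM21 transcript. Members and lists were chosen with earlier results of these data known. Every member is named; those with the 14 smallest p, the 6 highest levels per length, the type I genes, Cdh5, Pcdh12, Cdh13 and Pcdh8 get their value in every library, others where space allowed.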

Additional observations from a re-analysis of the deposited data

How the results depend on the processing

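Over all genes 0 passed in the edgeR fit. The number was 17 with DESeq2's size factors, 42 with upper-quartile scaling, 359 with no count filter, 43 with at least 50 reads in every library, 449 by DESeq2, 260 with transcript-length offsets and 0 by limma-voom, and between 0 (without FLOXED 1) and 596 (without PELP1 FBKO 2) with 1 library left out. With replicate number as a block 566 genes passed. The labels do not say what the number marks, and same-numbered libraries did not deviate together (correlation of deviations from the genotype means -0.143), so the block is given as a value only. Of the members 0 passed under the scalings, filters, DESeq2, limma-voom and length offsets. With the block 2 did (Cdh29, adjusted p = 0.0435, and Cdh19, adjusted p = 0.0272), and between 0 and 1 with a library left out (Cdh24 without PELP1 FBKO 1, Cdh15 without PELP1 FBKO 2). Where a lone library was left in a genotype it was taken to vary like the other pair. The sign turned in 11 members, whose log2 fold changes with all libraries lay between -0.15 (Cdh23) and 0.23 (Cdh20). With 1 library left out they ran from -0.0025 to 0.42 in Pcdh17, -0.086 to 0.43 in Cdh9, -0.056 to 0.58 in Cdh20, -0.041 to 0.45 in Cdh18, -0.12 to 0.36 in Pcdh7, -0.25 to 0.058 in Pcdh11x, -0.083 to 0.17 in Cdh8, -0.46 to 0.27 in Cdh23, -0.16 to 0.33 in Cdh6, -0.19 to 0.12 in Cdh11 and -0.41 to 0.25 in Pcdh1. With length offsets, chosen after seeing the data, they were -0.012 for Pcdh7, -0.0024 for Cdh8 and -0.023 for Cdh6. The cause was not tested. Depth limits the tested members with under 50 reads in a library (Cdh6, Cdh15, Cdh23, Cdh26, Cdh29 and Pcdh18), which the filter at 50 reads leaves out.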
